A study of Homo sapiens with 4 samples.

Results

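The distal part of the long arm of human chromosome 1 was examined through the regulatory elements that lie there. These are the 508 active enhancers and active promoters of the deposited table whose start is at or beyond position 220000000 of chromosome 1 (hg38), out of 33948 elements in all. They comprise 383 enhancers and 125 promoters, and the last of them ends at 248946338, beside PGBD2. The segment was picked because its elements meet many RNAs and because more RNA contacts were listed there in the mutant, so those overall totals are given below as a description and carry no test. The rule's edge falls inside a run of ordinary elements. Just outside it, an element at SLC30A10 met 5 RNAs in R320* and 5 in WT, and one at EPRS met 7 in R320* and 4 in WT. Just inside it, an element at EPRS met 2 in R320* and 2 in WT, and one at IARS2 met 4 in R320* and 3 in WT.

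The measurements are GRID-seq contacts in K562, a line from a human myeloid leukaemia with BCR-ABL1 and with erythroid traits. In GRID-seq a linker ties RNA to the DNA beside it in fixed nuclei, and sequencing across the linker reads both. RUNX1 is a transcription factor of blood cells, and R320* is a premature stop towards its C-terminus. Cells with R320* and cells with wild-type RUNX1 (WT) gave 2 libraries each. All 4 libraries share the K562 background and the same fixation with DSG followed by formaldehyde. Whether the mutant cells were 1 clone, and whether the libraries were separate cultures, the labels do not state. The deposited table gives 1 score per genotype for each pair of an RNA and an element, here called a connection. With libraries pooled there is no spread between replicates, and every difference below is a difference between 2 pooled values with no test. Depth is unknown, and the sources used here do not say how the score was made. A connection counts as listed in a genotype where its score passed 1.2, and a connection at 0 in a genotype is called not listed there, which is not a measured absence.

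RNA that is still being made stays close to its own gene, so most RNA contacts with chromatin are made near the place of transcription and thin out with distance. Contacts at longer range follow the folding of the chromosome, in which active stretches tend to lie together. A few abundant nuclear RNAs, such as the long noncoding RNAs MALAT1 and NEAT1, also reach active chromatin on other chromosomes. Enhancers and promoters are open stretches bound by transcription factors, and RUNX1 is one such factor in blood cells. In the table a connection is local where the RNA meets an element of its own gene, cis where both lie on the same chromosome, and trans where they lie on different chromosomes. As a check of the label, the embryonic and foetal globin RNAs HBE1 and HBG2, which K562 cells are known to make, were listed at 192 and 196 elements of the whole table in R320*, and at 152 and 154 in WT. The lymphoid markers CD3E, CD79A and MS4A1 were listed at 0 elements in both genotypes, as was GATA1, the gene of an erythroid transcription factor.

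The sequences of 4 promoters are shown because they belong to the elements that met the most RNAs. Each is the 250 bases before the gene's start in the RefSeq promoter table (GRCh38.p14, the coordinates of hg38), written 5′ to 3′ on the gene's strand, with every CG pair in capitals. COX20 encodes a factor that helps assemble cytochrome c oxidase, and HNRNPU an abundant nuclear protein that binds RNA and chromatin. IRF2BP2 encodes a transcriptional corepressor, and EFCAB2, which RefSeq now names DRC8, a protein of the ciliary dynein regulatory complex.
COX20, chr1:244835056-244835305, plus strand: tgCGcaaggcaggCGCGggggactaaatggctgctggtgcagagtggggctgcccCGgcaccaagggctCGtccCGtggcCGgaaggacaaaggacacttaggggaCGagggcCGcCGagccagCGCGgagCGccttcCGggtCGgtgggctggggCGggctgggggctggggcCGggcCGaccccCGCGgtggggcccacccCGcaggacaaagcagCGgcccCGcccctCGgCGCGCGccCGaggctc
HNRNPU, chr1:244864544-244864793, minus strand: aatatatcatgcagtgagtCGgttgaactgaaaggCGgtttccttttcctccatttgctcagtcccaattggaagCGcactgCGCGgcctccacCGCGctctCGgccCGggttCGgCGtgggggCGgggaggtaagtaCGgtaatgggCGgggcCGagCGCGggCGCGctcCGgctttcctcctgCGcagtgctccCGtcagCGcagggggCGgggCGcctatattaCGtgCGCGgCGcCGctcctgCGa
IRF2BP2, chr1:234609526-234609775, minus strand: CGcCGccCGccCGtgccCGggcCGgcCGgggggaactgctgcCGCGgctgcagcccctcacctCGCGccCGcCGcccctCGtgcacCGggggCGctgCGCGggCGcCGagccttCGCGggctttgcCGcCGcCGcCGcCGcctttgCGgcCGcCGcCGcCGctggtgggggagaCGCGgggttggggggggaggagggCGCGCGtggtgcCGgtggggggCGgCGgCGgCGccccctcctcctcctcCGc
EFCAB2, chr1:244969432-244969681, plus strand: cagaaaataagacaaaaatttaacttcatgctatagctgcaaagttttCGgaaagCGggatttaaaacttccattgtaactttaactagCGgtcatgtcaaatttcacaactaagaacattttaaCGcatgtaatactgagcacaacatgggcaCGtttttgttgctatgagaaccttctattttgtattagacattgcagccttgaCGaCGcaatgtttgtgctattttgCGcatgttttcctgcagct
The stretches hold 28, 31, 43 and 8 CG pairs in the order shown, and a median of 11 was found over the 35116 promoters of the table. The element with the EFCAB2 promoter also holds the starts of LOC124900416 and EFCAB2-AS1. Their promoters are not shown and hold 22 and 25 CG pairs. A search of both strands for TGTGGT or TGCGGT, letters of the RUNX motif, and for AGATAA or TGATAA, letters of the GATA motif, found 0 matches in any of the 4. Over all 35116 promoters 16.3% held the RUNX letters and 14.6% the GATA letters. Of 147 promoters that start inside a distal 1q element, 23 (15.6%) held the RUNX letters and 7 (4.76%) the GATA letters, with a median of 23 CG pairs. Among the 45 of them in an element that met 10 or more RNAs, 6 (13.3%) and 4 (8.89%) did, with a median of 25 CG pairs. A match in these letters is a description of the sequence and not a binding site.

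The distal 1q elements met more RNAs each than elements elsewhere. Their median was 4 RNAs per element with both genotypes pooled (interquartile range 2 to 8, highest 73), against 2 (1 to 4) over the 33440 other elements. Elements meeting 10 or more RNAs made up 18.7% of the distal 1q set (95 elements) and 3.57% of the others, and elements meeting a single RNA 15.4% (78 elements) and 29.5%. Their other properties lay closer to the rest of the table. The median length was 1853.5 bp, against 1868 bp elsewhere, 24.6% were promoters, against 29.8%, and 65.7% lay at or inside a gene, against 70.1%. Longer elements tended to meet more RNAs, with a Spearman correlation of 0.26 over the 508 elements, which share RNAs and neighbourhoods and so are not independent points. Within the set, promoters met a median of 6 RNAs and enhancers a median of 4.

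These elements carried 3160 connections with 186 RNAs, 156 from protein-coding genes and 30 long noncoding. In R320* 2494 connections were listed and in WT 1871. Of the 3160, 1289 (40.8%) were listed in R320* only, 666 (21.1%) in WT only and 1205 (38.1%) in both. Among all 115357 connections of the table these shares were 28.5% for R320* only, 26.3% for WT only and 45.2% for both. Connections of R320* alone thus outnumbered those of WT alone 1.94 times on distal 1q, and this is the quantity for which the segment was chosen. With elements within 1 Mb merged, so that neighbours count once per RNA, there were 175 of R320* alone and 145 of WT alone, a log2 ratio of 0.27, against 0.95 unmerged. On the rest of chromosome 1 the same ratio was 1.17. Cut into windows of 10 Mb, the genome gave 244 windows with at least 100 connections. The distal 1q windows that start at 220, 230 and 240 Mb ranked 59, 22 and 27 among them by this ratio, so other windows of the genome stood higher. The window starting at 210 Mb ranked 130.

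RNAs of the segment's own genes made up most of the gap. Its 51 such RNAs had 879 connections with distal 1q elements listed in R320* only and 338 in WT only, a ratio of 2.6. At other chromosome 1 elements the same 51 RNAs gave 30 in R320* only and 42 in WT only. On other chromosomes 16 of the 51 gave 157 in R320* only and 138 in WT only. RNAs of other chromosome 1 genes gave 34 in R320* only and 39 in WT only at distal 1q elements, and RNAs from other chromosomes 376 in R320* only and 289 in WT only. The excess of R320* for these 51 RNAs was thus counted at distal 1q elements. It was not seen in the far fewer connections of 18 of them on the rest of chromosome 1. Among all other genes and elements, the cis and local connections numbered 22884 in R320* only and 19670 in WT only, a ratio of 1.16.

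**Figure D1:**
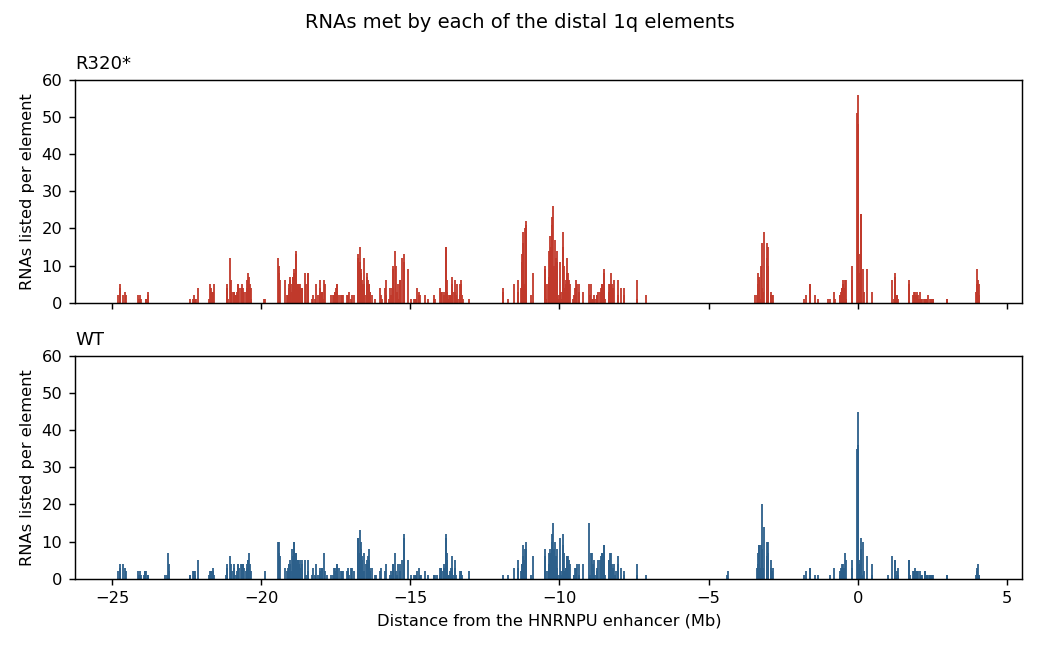
Number of RNAs listed at each of the 508 distal 1q elements (vertical axis) against its distance in Mb from the HNRNPU enhancer that met the most RNAs (horizontal axis), with R320* above and WT below; each vertical line is 1 element and 1 pooled value. The tallest lines, 56 RNAs in R320* and 45 in WT, stand at the HNRNPU enhancer, and a run of elements about 10 Mb before it reached 26 RNAs in R320* and 15 in WT.

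Most elements kept a similar rank in the 2 genotypes, with a Spearman correlation of 0.78 between the numbers of RNAs over the 508 elements. Of the 508, 442 were listed in both genotypes, 34 in R320* only and 32 in WT only. The like shares over all elements are not given here, so nothing is read from these counts. A change of 2-fold or more was read only for elements listed in both genotypes with a mean of at least 2 RNAs, which left 365. With that mean but listed in a single genotype were 4 more, 2 in R320* and 2 in WT, which have no ratio. Of these, 85 (23.3%) met more RNAs in R320* by at least 2-fold, where 12.4% of all elements compared did so. At least 2-fold fewer in R320* were met by 16 (4.38%), where 9.6% of all elements did so. The median log2 ratio was 0.32 on distal 1q and 0 over the whole table. Neighbouring elements meet the same RNAs, so these counts do not come from independent units.

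Among elements with more RNAs in the mutant, an enhancer at KCNK1 (chr1:233598718-233599796), the gene of a potassium channel, met 11 in R320* and 2 in WT, a log2 ratio of 2.46. The RNAs of EFCAB2 and KCNK1 were listed there in both, at scores of 2.45 and 2.39 in R320* and 2.45 and 2.36 in WT. Those of KIF26B, NUP133, URB2, TARBP1, SLC35F3 and HNRNPU were listed in R320* only, at scores between 1.30 and 2.11. An enhancer at CCSAP (chr1:229347326-229353603), the gene of a centriole protein, met 10 RNAs in R320* and 2 in WT, with NUP133 RNA at 2.49 in R320* and 2.63 in WT. One at PARP1 (chr1:226349051-226354556), the gene of a DNA repair enzyme, met 5 in R320* and 1 in WT. An enhancer at SUSD4 also met 5 in R320* and 1 in WT. In the other direction, an enhancer at the long noncoding gene AL139161.2 (chr1:235937106-235937475) met 1 RNA in R320* and 7 in WT, a log2 ratio of -2.81. An enhancer at EDARADD, which encodes an adaptor of the ectodysplasin receptor, met 1 in R320* and 5 in WT. Enhancers at TP53BP2 and MTR and the promoter of AL139161.1 each met 1 in R320* and 4 in WT. Ratios of such small numbers rest on few connections. The elements at DUSP10, which encodes a phosphatase of MAP kinases, were listed in WT alone, with 0 connections in R320* and 15 in WT over 5 elements. One of its enhancers met 0 RNAs in R320* and 7 in WT, and its promoter 0 in R320* and 4 in WT. The EGLN1 promoter, of an oxygen-sensing enzyme gene, met 5 in R320* and 0 in WT.

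Grouped by nearest gene, the 7 elements at KCNK1 had 75 connections listed in R320* and 30 in WT. The 4 elements at AL357972.1 had 81 in R320* and 32 in WT, and the 3 at IRF2BP2 had 70 in R320* and 37 in WT. The 6 elements at OPN3, the gene of an opsin, went the other way with 32 in R320* and 42 in WT. At FAM89A, 6 elements had 55 in R320* and 49 in WT, and at IBA57, which encodes a mitochondrial iron-sulphur protein factor, 3 elements had 32 in R320* and 31 in WT. The balance was thus uneven along the segment, and genes only a few Mb apart differed in it.

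The 3 adjacent elements around HNRNPU and COX20 met the most RNAs of the set. The enhancer at HNRNPU (chr1:244841420-244855108) met 73 RNAs, 56 of them listed in R320* and 45 in WT. The COX20 promoter element (chr1:244832881-244838800) met 66, with 51 in R320* and 35 in WT. The HNRNPU promoter element (chr1:244859126-244866764) met 61, with 48 in R320* and 36 in WT. The promoter sequences of COX20 and HNRNPU printed above lie within the last 2. Together the 3 elements met 81 RNAs, of which 46 were listed at every one of them, so they are not separate observations. The enhancer and the COX20 promoter shared 64 RNAs, 87.7% of those of the enhancer and 97% of those of the promoter.

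At the COX20 promoter, HNRNPU RNA had the highest score, 3.61 in R320* and 3.68 in WT, and EFCAB2 RNA followed at 3.06 in R320* and 3.09 in WT. The RNA of HEATR1, a factor of ribosome synthesis, scored 2.48 in R320* and 2.03 in WT. RYR2 RNA scored 1.90 in R320* and 1.76 in WT. RNAs of NUP133, TOMM20, ABCB10 and URB2 were listed there in R320* only, at 2.31, 2.27, 2.47 and 2.10, as was RNA of the nearby gene ADSS at 2.51. RNAs of LYPLAL1, LYST and IVNS1ABP were listed in WT only, at 2.49, 2.15 and 1.99. EXO1 RNA, from the gene of a DNA exonuclease, was listed in both, at 1.52 in R320* and 2.32 in WT.

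These 3 elements also drew RNAs from other chromosomes, 46 in all, and 22 of them at all 3. They held 109 of the trans connections of the segment, 80 listed in R320* and 53 in WT. At the COX20 promoter, RNA of TET1, which encodes a DNA demethylating enzyme, scored 3.43 in R320* and was not listed in WT. RNAs of the globin genes HBG2 and HBE1 were listed at that promoter in WT only, at 1.90 and 1.84. The long noncoding RNA MEG3 was also listed there in WT only, at 2.16. NEAT1 was listed in both, at 1.91 in R320* and 1.37 in WT, and MALAT1 at 1.39 in R320* and 1.22 in WT. Of the 46 trans RNAs, 11 met no other distal 1q element.

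The next elements by number of RNAs lay at IRF2BP2 and EFCAB2. An IRF2BP2 enhancer (chr1:234616588-234617575) met 26 RNAs in R320* and 15 in WT, and the IRF2BP2 promoter (chr1:234598475-234613702) met 23 in R320* and 10 in WT. Another IRF2BP2 enhancer (chr1:234589804-234590019) met 21 in R320* and 12 in WT. The EFCAB2 promoter (chr1:244968291-244972586) met 24 in R320* and 8 in WT, and an enhancer at AL356512.1 beside it (chr1:244963409-244965243) met 24 in R320* and 11 in WT. At the IRF2BP2 enhancer with the most RNAs, ARID4B RNA scored 2.58 in R320* and 2.61 in WT, SDCCAG8 RNA 1.97 in R320* and 2.11 in WT, and SMYD3 RNA 1.66 in R320* and 1.65 in WT. At the enhancer starting at 234589804, ARID4B RNA scored 2.73 in R320* and 2.41 in WT, and SDCCAG8 RNA 2.31 in R320* and 1.90 in WT. The order of the genotypes thus differed between neighbouring elements for the same RNA. The genes of SDCCAG8 and SMYD3 lie several Mb beyond these elements.

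Among the visiting RNAs, a small number accounted for much of the listing. The 12 RNAs with the most elements gave 32.2% of all connections. ARID4B RNA, from the gene of a subunit of a histone deacetylase complex, was listed at 92 elements in R320* and 87 in WT. SMYD3 RNA, from a lysine methyltransferase gene, was listed at 93 in R320* and 70 in WT. CDC42BPA RNA, encoding a kinase that acts below the small GTPase CDC42, was listed at 84 in R320* and 73 in WT. These broadest visitors differed by less than 2-fold, all with more elements in R320*. SDCCAG8, the gene of a centrosomal protein, had 74 in R320* and 60 in WT, and GALNT2, which starts mucin-type O-glycosylation, 78 in R320* and 63 in WT. MTR, the gene of methionine synthase, had 64 in R320* and 61 in WT. RYR2, the calcium release channel of heart muscle, had 65 in R320* and 63 in WT. NUP133, a scaffold protein of the nuclear pore, had 56 in R320* and 38 in WT.

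**Figure D2:**
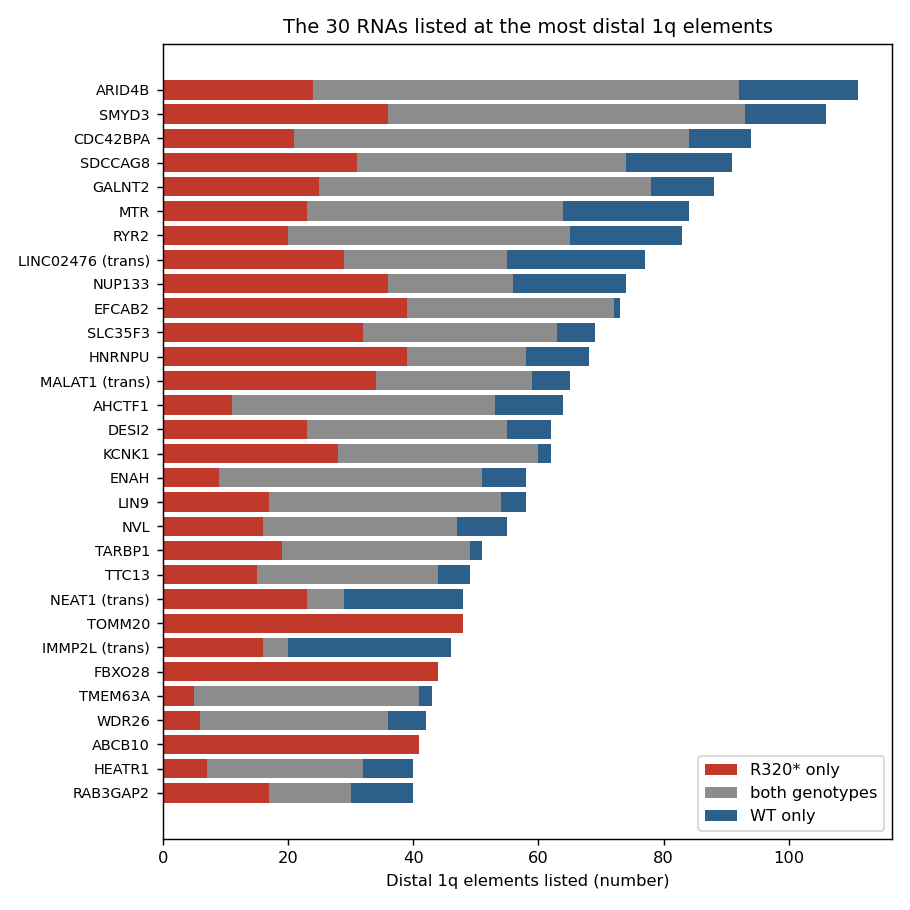
Number of distal 1q elements (horizontal axis) at which each of the 30 RNAs with the most elements was listed; bars are stacked from connections in R320* only (red), in both genotypes (grey) and in WT only (blue). ARID4B had 92 elements in R320* and 87 in WT, EFCAB2 had 72 in R320* and 34 in WT, and TOMM20, FBXO28 and ABCB10 show red alone.

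Over RNAs listed at distal 1q in both genotypes with a mean of at least 10 elements, 49 could be compared, with a median log2 ratio of 0.26, against 0.1 over all elements of the table. At least 2-fold more distal 1q elements in R320* were met by 7 RNAs (14.3%). Counted over all elements of the table, 2.17% of RNAs had at least 2-fold more. These shares count different sets of elements and so are not like measures. EFCAB2 RNA was listed at 72 in R320* and 34 in WT, and HNRNPU RNA at 58 in R320* and 29 in WT. LBR, the gene of the lamin B receptor of the inner nuclear membrane, had 31 in R320* and 12 in WT. KIF26B, a kinesin gene, had 26 in R320* and 7 in WT, and all 7 elements of WT were among the 26. From other chromosomes came the long noncoding RNAs AC097528.1, at 30 in R320* and 9 in WT, and AC004936.1, at 17 in R320* and 7 in WT, and the RNA of the kinase gene PRKCB, at 15 in R320* and 6 in WT. At least 2-fold fewer in R320* were met by 1 RNA, that of RPS6KC1, a kinase-like gene, at 6 in R320* and 22 in WT. Counted over all elements of the table, 0.929% of RNAs had at least 2-fold fewer.

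A further group was listed in a single genotype at every element of the table. Of the 186 RNAs, 12 were listed in R320* alone, with 253 connections here, and 9 in WT alone, with 69 connections. Over all 2637 RNAs of the table, 8.61% were listed in R320* alone and 10.4% in WT alone. Both groups made up a smaller share of the 186, but the kinds of RNA differed. Of the 51 RNAs of the segment's own genes, 9 were listed in R320* alone and 2 in WT alone. Of the 114 trans RNAs, 3 were listed in R320* alone and 7 in WT alone. The R320* group included TOMM20, a receptor for protein import into mitochondria, at 48 elements, and FBXO28, an F-box gene, at 44. ABCB10, a mitochondrial transporter gene that erythroid cells need for haem synthesis, was at 41, and ARF1, a small GTPase of the Golgi, and URB2, a ribosome synthesis factor, at 24 each. The WT group included LYST, a regulator of lysosomal trafficking, at 21 elements, and EDARADD at 15. With a mean of at least 10 elements but no ratio, 8 RNAs stood outside the 49 compared, 7 of R320* and LYST of WT. Median scores of the R320* RNAs over their distal 1q elements ran between 1.66 for ACTN2 and 2.47 for PCNX2, which had 1 element. At or beside their own genes some scored higher. FBXO28 RNA scored 2.87 and 2.95 at the promoter and an enhancer of its own gene, TOMM20 RNA 4.35 at a promoter beside its gene, and ABCB10 RNA 3.72 at an enhancer beside its gene. The amount of these RNAs in the cell was not measured here. TBCE, a tubulin-folding gene, appears under 2 identifiers. One was listed in R320* alone at 30 elements, and 29 of these were also met by the other, which had 34 in R320* and 32 in WT, so the reads of this gene may be split between them. With RNAs set aside whose gene name was listed in a single genotype, 1066 connections remained in R320* only and 597 in WT only. The 1066 still include the 30 connections of the TBCE identifier of R320* alone, which shares its name with the other.

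By role, 6 of 18 genes of chromatin and transcription in the segment had RNA connections here, 5 at more elements in R320*, 0 at fewer and AHCTF1, a nuclear pore and chromatin factor, at 53 in both. Their median log2 ratio was 0.44. Of 22 mitochondrial and metabolic genes 7 were listed, 4 at more elements, 1 at fewer and 2 in R320* only, with a median of 0.1. Of 16 blood-related genes 6 were listed, 3 at more, 1 at fewer, ABCB10 in R320* only and LYST in WT only, with a median of 0.13. Of 16 muscle and nerve genes 5 were listed, 3 at more, 1 at fewer and ACTN2 in R320* only, with a median of 0.41. Of 9 nuclear long noncoding RNAs 5 were listed, all of them trans, 3 at more, 1 at fewer and MEG3 in WT only, with a median of 0.48. Of BCR, ABL1 and NUP214, ABL1 was listed in R320* alone, NUP214 at fewer elements in R320*, and BCR was not listed. Over all 186 RNAs, 53 had more elements in R320*, 25 fewer, 7 the same number, 56 were at distal 1q in R320* alone and 45 in WT alone, with a median of 0.21. The first 5 lists leaned the same way as the RNAs as a whole, and with so few members nothing is read from their order.

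Connections over longer distances were less often shared between the genotypes. Of 94 local connections 77.7% were listed in both genotypes, and of 267 cis connections within 100 kb 75.7% were. The share was 57.1% of 975 between 100 kb and 1 Mb and 26.1% of 518 between 1 and 5 Mb. It was 28.7% of 485 between 5 and 20 Mb, 12.8% of 47 beyond 20 Mb and 12.2% of 757 in trans. On all other elements the shares were 79.8% within 100 kb, 61.1% to 1 Mb, 32.8% to 5 Mb and 13.7% to 20 Mb, so distal 1q lay below them at the first 3 of these steps and above them at the last. At each step up to 20 Mb, connections of R320* alone outnumbered those of WT alone. They did so 6 times among local connections, 2.42 times within 100 kb, 2.67 times to 1 Mb, 2.45 times to 5 Mb and 2.43 times to 20 Mb. The same steps on all other elements gave 0.81, 0.88, 1.19, 1.25 and 1.22. Beyond 20 Mb the ratio on distal 1q was 0.78, from 18 connections of R320* alone and 23 of WT alone. The ratio was thus highest for local connections, of which few were in a single genotype, and similar at the cis steps up to 20 Mb.

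**Figure D3:**
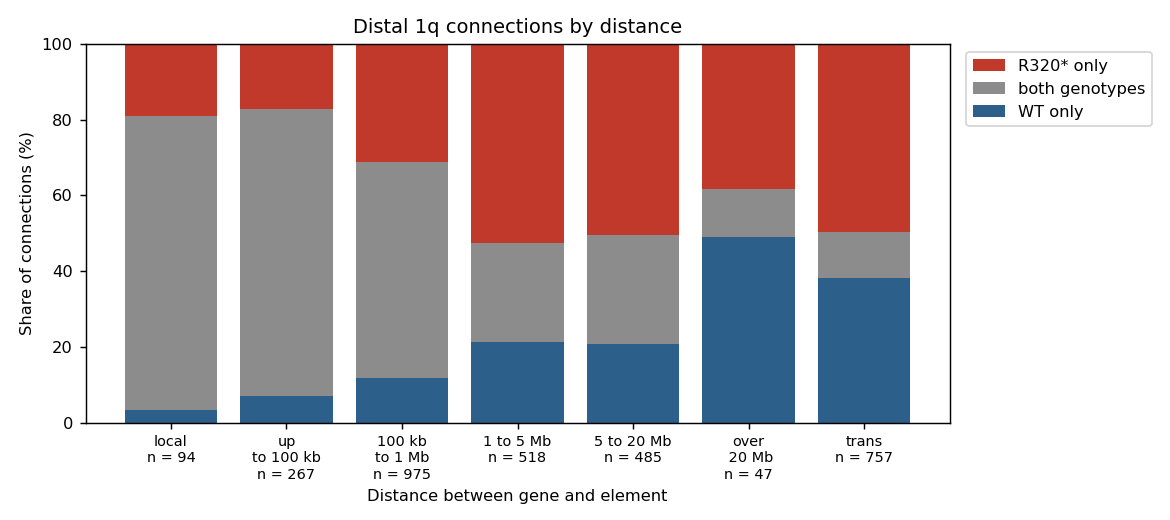
Share of distal 1q connections (vertical axis, %) listed in R320* only (red, top), in both genotypes (grey) and in WT only (blue, bottom), by the distance between the gene and the element, with the number of connections under each bar. The shared part is 77.7% for local connections and 12.2% in trans, and the red part exceeds the blue at every distance but beyond 20 Mb.

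Local connections were the most often shared. Of the 94, 73 were listed in both genotypes, 18 in R320* alone (19.1%) and 3 in WT alone (3.19%). At local connections of all other elements 8.45% were in R320* alone and 10.4% in WT alone. Once RNAs whose gene name was listed in a single genotype were left out, 76 remained, of which 3 were of R320* alone and 0 of WT alone. Those 3 were of the TBCE identifier listed in R320* alone, which shares its name with another identifier. The difference between shared local scores, R320* minus WT, had a median of 0.0275 (SD 0.108 over connections). WDR26 RNA, from the gene of a ubiquitin ligase subunit, scored 3.04 at an element of its own gene in R320* and 3.11 in WT. TP53BP2 RNA, from a gene of a p53-binding protein, scored 2.82 in R320* and 2.87 in WT at an enhancer inside its gene. Local connections of RNAs listed in both genotypes thus had close scores. The local connections of a single genotype were of RNAs listed in that genotype alone, with the TBCE identifiers counted apart.

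The genotype balance differed along the segment. In 5 Mb stretches, elements from 220 to 225 Mb had 107 connections in R320* only and 83 in WT only. Those from 225 to 230 Mb had 341 of R320* alone and 193 of WT alone. Those from 230 to 235 Mb had 455 of R320* alone and 146 of WT alone, a ratio of 3.12. From 235 to 240 Mb 97 were of R320* alone and 106 of WT alone, a ratio of 0.92. From 240 to 245 Mb there were 229 of R320* alone and 110 of WT alone, and from 245 Mb to the end 60 of R320* alone and 28 of WT alone. The stretch with the highest ratio was thus next to the only one with a ratio below 1. In trans connections the same 235 to 240 Mb stretch had 11 of R320* alone and 24 of WT alone, and the 220 to 225 Mb stretch 17 of R320* alone and 33 of WT alone.

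The 230 to 235 Mb elements met RNAs from genes on both sides. Genes lying at 225 to 230 Mb had 55 connections there in R320* and 6 in WT. NUP133 RNA was listed at 22 of these elements in R320* and 3 in WT. At elements of its own 225 to 230 Mb stretch it went the other way, with 19 in R320* and 35 in WT. URB2 RNA was at 15 and ABCB10 RNA at 11 in R320*, and neither was listed in WT anywhere. Genes at 235 to 240 Mb had 164 connections there in R320* and 91 in WT. Of the 164, TOMM20 RNA gave 33 and 1 of the TBCE identifiers 17, and neither was listed in WT anywhere. Of the 91, LYST RNA gave 4, and it was not listed in R320* anywhere. Genes at 240 to 245 Mb had 79 in R320* and 30 in WT. Among the last, EFCAB2 RNA was listed at 23 elements in R320* and 8 in WT, and HNRNPU RNA at 19 in R320* and 2 in WT. DESI2 RNA, from the gene of a desumoylating peptidase, was at 14 in R320* and 3 in WT, and SDCCAG8 RNA at 23 in R320* and 16 in WT. In contrast, genes at 235 to 240 Mb had 164 connections in R320* and 182 in WT with elements of their own stretch.

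**Figure D4:**
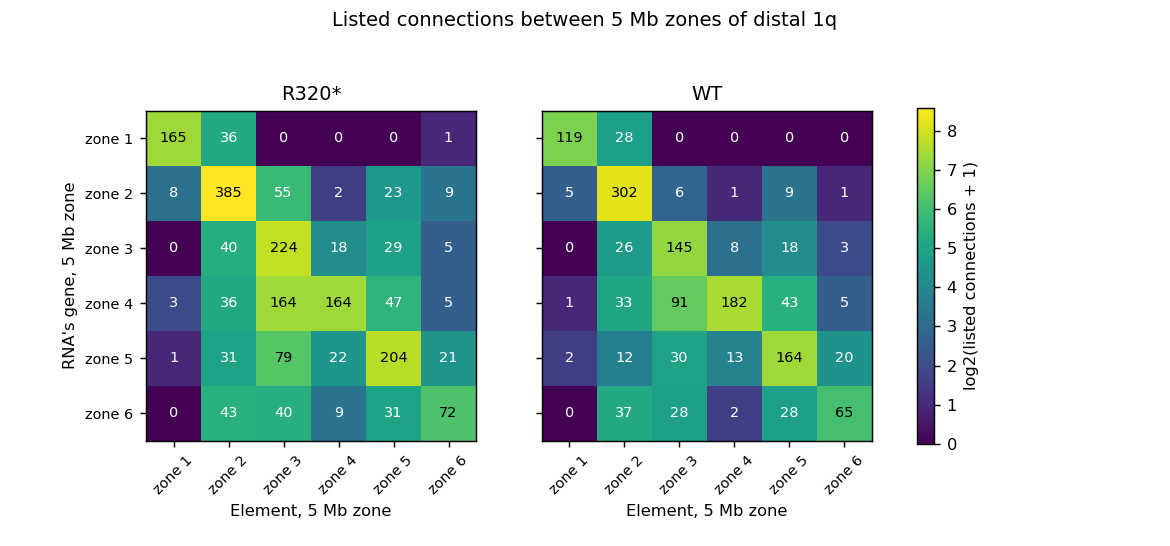
Listed connections between genes (rows) and elements (columns) of 6 stretches of 5 Mb, numbered from the 220 Mb edge (zone 1) towards the chromosome end (zone 6), in R320* on the left and WT on the right; colour is log2(connections + 1) and the numbers are the connections. Genes of zone 2 had 55 connections at elements of zone 3 in R320* and 6 in WT, and zone 4 with itself had 164 in R320* and 182 in WT.

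One long-range set joined genes at or beyond 243 Mb with elements at 233 to 236 Mb, 8.09 to 12.2 Mb apart, and its limits were set after seeing the values. It held 138 connections of 8 RNAs with 57 elements, 120 listed in R320* and 57 in WT, with 39 shared. EFCAB2 RNA was listed at 24 of these elements in R320* and 9 in WT. KIF26B RNA was listed at 19 in R320* and 5 in WT, HNRNPU RNA at 15 in R320* and 4 in WT, and DESI2 RNA at 14 in R320* and 3 in WT. SMYD3 RNA was at 17 in R320* and 11 in WT. RNAs of AHCTF1 and ADSS were listed there in WT only, at 3 elements and 1. In the reverse direction, RNAs of genes at 233 to 236 Mb had 23 connections in R320* and 9 in WT with elements at or beyond 243 Mb. Of these, KCNK1 RNA gave 11 in R320* and 6 in WT. Contact was thus listed from both ends, with more in R320* in each direction.

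Scores of connections listed in both genotypes differed little. Over the 1205 shared connections the median difference, R320* minus WT, was 0.0564 (SD 0.282 over connections), and the central 95% ran between -0.561 and 0.582. Over shared connections of all other elements the median was 0.0391. Pearson's correlation of the scores was 0.85 over the 1205, which share RNAs and elements. A difference of at least 1 unit upward was found for 2, where 0.0998% of all shared connections had one. EFCAB2 RNA at an enhancer of AL357972.1 (chr1:233703994-233710768) scored 2.78 in R320* and 1.27 in WT. LIN9 RNA, from the gene of a subunit of a cell-cycle repressor complex, scored 2.40 in R320* and 1.201 in WT at an enhancer of LEFTY2. A difference of at least 1 unit downward was found for 1, where 0.0749% had one. COQ8A RNA, from a gene of coenzyme Q synthesis, scored 1.40 in R320* and 3.60 in WT at a promoter element of CDC42BPA (chr1:226990290-226990816). At that AL357972.1 enhancer KIF26B RNA also scored 2.67 in R320* and 1.68 in WT. Connections of a single genotype had lower scores, with a median of 1.65 in R320* only and 1.56 in WT only. At least 2 was scored by 339 of the 1289 in R320* only and by 107 of the 666 in WT only. The 1289 include 253 of RNAs listed nowhere in WT, and the 666 include 69 of RNAs listed nowhere in R320*. How many of those scored at least 2 is not given here.

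RNAs from other chromosomes made 757 connections with 253 of the 508 elements, and the other 255 elements had none listed. The 114 trans RNAs had 468 connections in R320* and 381 in WT, with 92 shared. Median scores were 1.48 in R320* and 1.49 in WT, below the 1.84 in R320* and 1.81 in WT of cis connections. The 8 trans RNAs with the most elements gave 45.7% of the trans connections. LINC02476, a long intergenic noncoding RNA, was listed at 55 elements in R320* and 48 in WT. MALAT1, the nuclear speckle RNA, was at 59 in R320* and 31 in WT, and NEAT1, the scaffold of paraspeckles, at 29 in R320* and 25 in WT. IMMP2L, a gene of a mitochondrial peptidase, went the other way, with 20 in R320* and 30 in WT. LMAN1, the gene of an endoplasmic reticulum cargo receptor, had 22 in R320* and 17 in WT, with 11 shared. AC097528.1 had 14 of its elements between 230 and 235 Mb, every one in R320* only.

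By source, chromosome 7 gave the most trans connections, 121 in R320* and 123 in WT from 17 RNAs. Chromosome 11, which carries MALAT1 and NEAT1, gave 103 in R320* and 79 in WT. Chromosome 4 gave 45 in R320* and 18 in WT, of which AC097528.1 supplied the larger part. Chromosome 8 gave 13 in R320* and 20 in WT. From chromosome 9, which carries one of the partners of the BCR-ABL1 fusion, there were 15 in R320* and 4 in WT. ABL1 RNA itself was listed at 7 elements in R320* and none in WT, while NUP214 RNA, from a neighbouring gene, was at 1 in R320* and 3 in WT. The 3 trans connections of RNF4, the gene of a ubiquitin ligase for SUMO-bearing proteins, all lay at FAM89A. They scored 4.75, 3.32 and 2.30 in R320*, and 4.55, 2.80 and not listed in WT. The first of these was the highest score in the segment, for an RNA from chromosome 4.

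**Figure D5:**
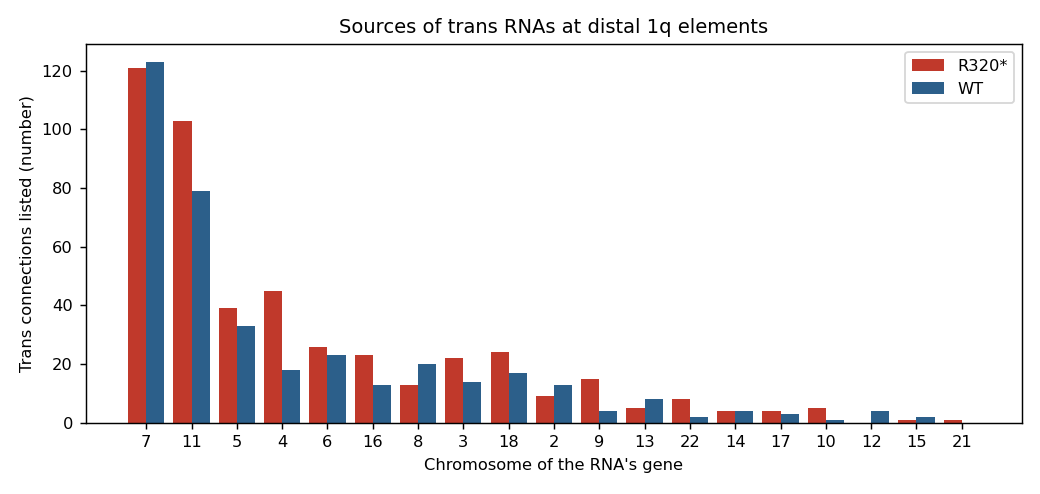
Trans connections with distal 1q elements (vertical axis, number listed) by the chromosome of the RNA's gene (horizontal axis), R320* in red on the left of each pair and WT in blue; bars are 1 pooled value each. Chromosome 7 had 121 in R320* and 123 in WT, chromosome 11 had 103 in R320* and 79 in WT, and chromosome 4 had 45 in R320* and 18 in WT.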

How the data were processed

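GRID-seq was measured in K562 cells, 2 libraries of RUNX1 R320* and 2 of WT, grouped by the genotype in the labels. Per the submitters' processing notes, reads were processed with cutadapt 1.12, BWA and bedtools on hg38. The authors deposited 1 table of 115357 connections of 2637 RNAs with a score per genotype. The sources used here do not state how the score was built or the libraries combined. Every deposited score is 0 or above 1.2. Libraries being pooled, no test, error over replicates or interval was possible, and depth is unknown. The design allowed for values per library, which were not used here.

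From the table, connections were counted by element, RNA, type, genotype and distance with Python 3.11.15, pandas 2.3.3 and numpy 2.4.6, and the counting was tested on simulated data. Distances run between the gene's nearer end and the element. Genes were placed through the RefSeq gene table of GRCh38.p14, which gave a position for 169 of the 186 RNAs, 4 of them through an older symbol. Where it gave none, the chromosome of a trans RNA was taken from that RNA's own cis connections. A 2-fold change required listing in both genotypes and a mean of at least 2 RNAs per element or 10 elements per RNA. Named genes and elements were the largest by number or by ratio within these limits. The elements, gene lists and rules were chosen with earlier results of these data known. Alternatives were other score minimums, merged elements, parts of the table and other minimums.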

Additional observations from a re-analysis of the deposited data

How the results depend on the processing

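No paired analysis was possible because the deposited scores are pooled by genotype, and for the same reason no replicate could be left out. The balance of connections in R320* only over WT only (log2 0.95) stayed above 0 under all 16 alternatives. The segment was chosen for this balance, so its sign among the same connections is a description and no support. The balance was 1.11 at a score of at least 1.5 and 1.23 at 2. It was 1.26 for cis and 0.38 for trans connections alone, 1.11 with elements from 230 Mb on, and 0.27 with elements merged within 1 Mb. In alternatives chosen after seeing the data, it was 0.68 without the elements of 230 to 235 Mb and 1.38 for RNAs of distal 1q genes alone. The median score difference of 0.0564 was 0.017 after centring on all shared connections. The 85 elements with at least 2-fold more RNAs in R320* became 46 at a mean of at least 4 RNAs and 55 without 230 to 235 Mb. The 16 with fewer became 3 at a mean of at least 4 and 25 with no minimum. The 7 RNAs at more elements became 2 at a mean of at least 25 elements, 3 without 230 to 235 Mb and 0 in bins of 1 Mb, where 10 RNAs could be compared. The 1 RNA at fewer became 2 at a mean of at least 5 and 0 at 25, in 1 Mb bins and without 230 to 235 Mb. Merging, binning and higher minimums leave fewer units to compare. For the other changes the cause was not tested. Without depth, a connection missing in a genotype cannot be told apart from one just under 1.2.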

Other observations

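RNAs of distal 1q genes also met elements on other chromosomes. SMYD3 RNA did so most often, at 78 elements in R320* and 104 in WT on 19 chromosomes, so that it had more elements in R320* within the segment (93 in R320*, 70 in WT) and fewer outside chromosome 1. RYR2 RNA was listed at 42 elements of other chromosomes in R320* and 47 in WT. HNRNPU RNA was listed at 43 in R320* and 11 in WT, with 1 shared. CDC42BPA RNA was at 10 in R320* and 10 in WT, with 0 shared. These values have no test. For CDC42BPA and RYR2 the lists of elements differed between genotypes more than their numbers did, and RYR2 shared 11. Low sharing was usual in trans, where 11.5% of all 21876 trans connections were listed in both genotypes. On other chromosomes the share was 24.7% of 146 for SMYD3, 14.1% of 78 for RYR2 and 1.89% of 53 for HNRNPU. The 20 connections of CDC42BPA are few, so its lack of sharing is not read as a trait of that RNA.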
